A study of Rattus norvegicus with 6 samples.

Results

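The genes examined here drive the cell division cycle and the copying of DNA. The list held 40 rat genes, and a gene was counted as a member when at least 1 probeset on the exon array carried its symbol, and no other symbol, in the platform annotation. In all, 28 of the 40 were found in this way, with 431 probesets, among 13411 genes and 226599 probesets on the array. A further 2 listed genes were present only under an older symbol, Cdk1 as Cdc2 and Cdc45 as Cdc45l; they are described with the others and counted apart. The remaining 10 (Ccnd3, Cdk4, Cdk6, E2f1, Mcm3, Mcm4, Mcm6, Rrm2, Birc5 and Nusap1) matched no probeset with a single symbol and have no value below.

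Spinal nerve transection (SNT) is a rat model of neuropathic pain in which the nerve that leaves the fifth lumbar (L5) dorsal root ganglion is cut. RNA was taken from L5 dorsal root ganglia of male Wistar rats 7 days after SNT and of naive rats that had no operation, and was hybridised to Affymetrix Rat Exon 1.0 ST arrays. Each group had 3 arrays, each from a pool of ganglia of 4 animals, so that 12 animals stand behind each group. The samples held no sham-operated group, so effects of the operation other than the nerve cut cannot be told apart from effects of the cut. A dorsal root ganglion holds the cell bodies of sensory neurones, the satellite glia that wrap them, Schwann cells, vessels, connective tissue and resident macrophages. In whole ganglia, more or fewer cells of a type and more or less RNA per cell cannot be told apart.

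Adult sensory neurones do not divide, whereas glia, macrophages and other cells of the ganglion can. A dividing cell passes through G1, in which D-type cyclins with their kinases inactivate the retinoblastoma protein and free E2F factors to switch on genes for DNA synthesis. In S phase the MCM helicase, loaded at origins with the help of Cdc6, unwinds DNA for the polymerases, which are held on the template by Pcna. In G2 and mitosis, cyclin B with Cdk1, Polo and Aurora kinases, and the spindle and checkpoint proteins separate the chromosomes, and the anaphase-promoting complex then destroys the cyclins. Most of the messages for G2 and mitosis are made only in cells that are cycling, which is why Mki67 and Top2a serve as markers of proliferation in tissue.

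Most of the cell cycle genes were higher after SNT and none was lower. Of the 28 members, 21 rose in SNT ganglia at a false discovery rate (FDR) of 0.1, or 75.0%, and 7 did not pass. Over all 13411 genes, 12.9% were called higher and 23.2% lower in SNT ganglia. The median member changed by 0.72 on the log2 scale, a 1.65-fold higher level in SNT ganglia, against a median of -0.02 over all genes, and 27 of the 28 members had a positive difference. The middle 50% of members lay between 0.47 and 0.99, against -0.29 to 0.18 for all genes. In 18 members every SNT array was above every naive array; for comparison, 16.9% of all genes were apart in this direction and 28.7% in the other. The groups overlapped in the other 10 members. With the 2 genes found under older symbols, 23 of 30 rose. These calls come from limma on 1 median-polished value per gene and array, with Benjamini-Hochberg adjustment over all genes. The count fell when a naive array was left out: 12 of the 28 members were called without naive 1 and 13 without naive 2. The share of all genes called higher fell as well, from 12.9% to 7.55% and 7.51%. The members' median was 0.69 in both fits. No member was lower with any array left out.

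**Figure D1:**
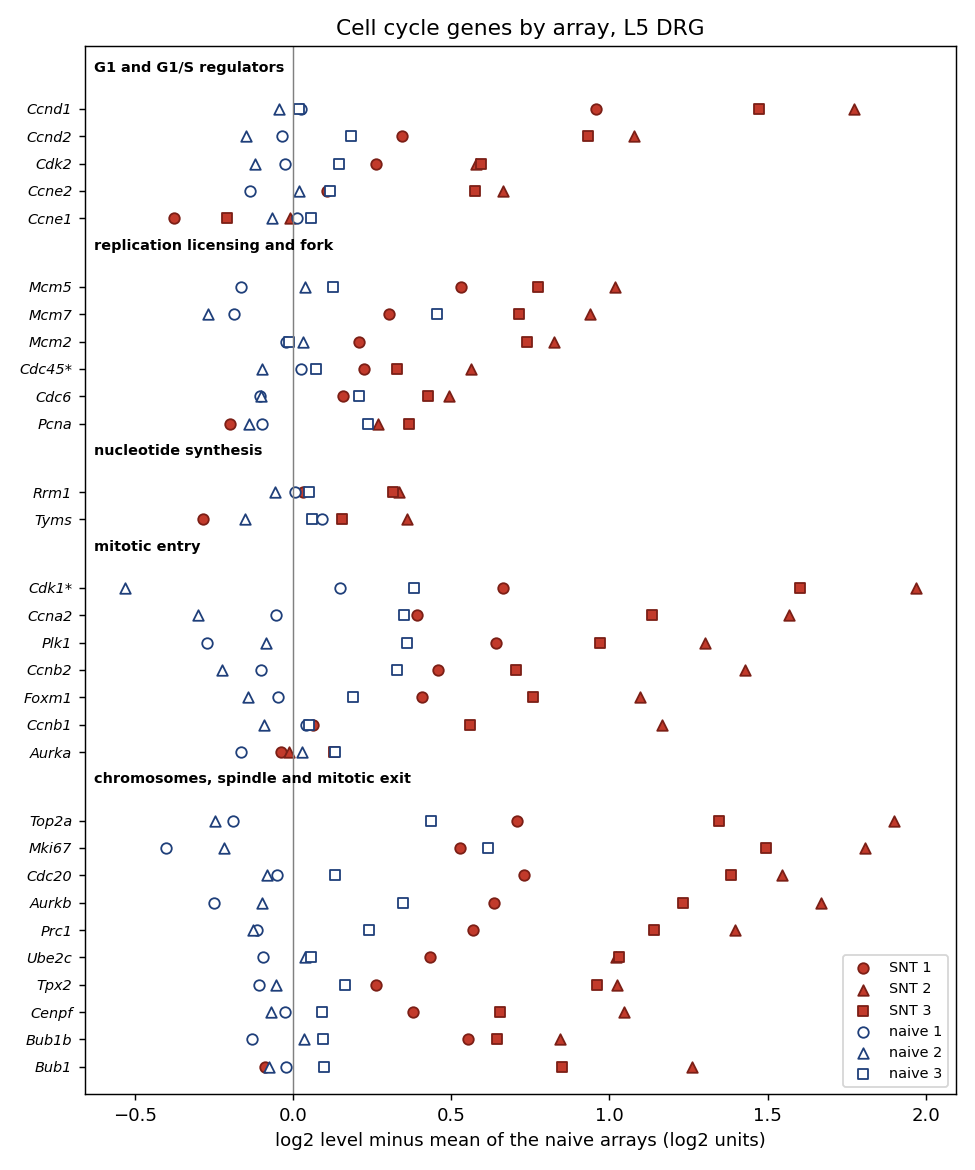
Log2 level of each measured cell cycle gene minus its mean over the naive arrays, on the 3 SNT arrays (filled symbols) and the 3 naive arrays (open symbols), grouped by role; an asterisk marks the 2 genes found under an older symbol. In 20 of the 30 genes all SNT points lie above all naive points, and Ccne1 is the only gene whose SNT mean is below its naive mean.

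**Figure D2:**
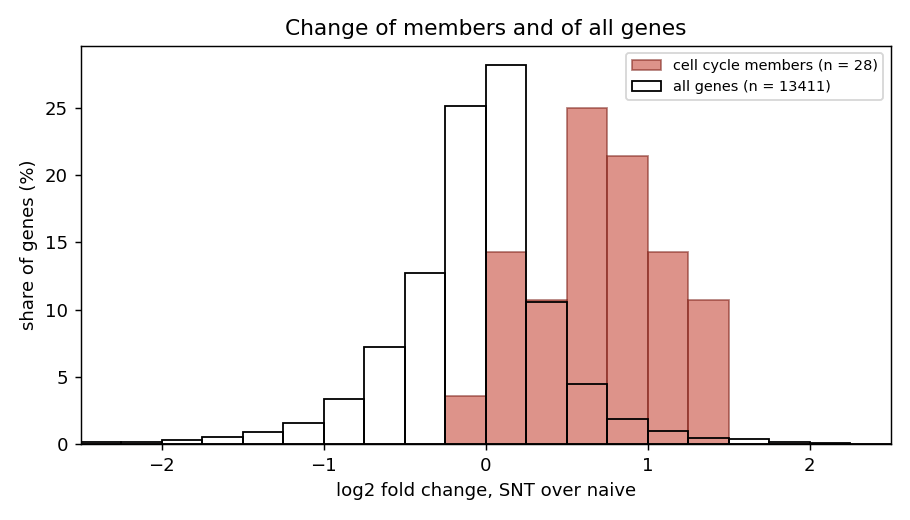
Share of genes in percent by log2 difference, SNT minus naive, for the 28 members (filled bars) and all 13411 genes (open bars). The members have a median of 0.72 and all genes a median of -0.02.

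Promoters are shown for 4 listed genes that rose, because of control sites known in such genes. Many mitotic genes are known to be controlled by a CCAAT box with a cell cycle homology region (CHR). NF-Y binds the CCAAT box, and S phase genes are known to be controlled by E2F sites. The promoters are RefSeq sequences of the rat assembly GRCr8, from 250 bases before to 50 after the transcription start, 300 bases in all. Capitals mark the motifs searched on both strands. The first was CCAAT, which appears as ATTGG where it lies on the opposite strand. The CHR was searched as TTTGAA and also as TTCGAA. The E2F-like letters were 1 of 4 forms, namely TTGGCGC, then the form TTCGCGC, then the form TTCCCGC, then the form TTGCCGC. The CHR form TTCGAA reads the same on both strands, and 2 of the E2F-like matches of Mcm5 overlap. Positions are chr20:19265043-19265342 (plus strand) for Cdk1, chr10:84473044-84473343 (minus strand) for Top2a, chr5:137255750-137256049 (minus strand) for Cdc20 and chr19:13488563-13488862 (plus strand) for Mcm5.
Cdk1: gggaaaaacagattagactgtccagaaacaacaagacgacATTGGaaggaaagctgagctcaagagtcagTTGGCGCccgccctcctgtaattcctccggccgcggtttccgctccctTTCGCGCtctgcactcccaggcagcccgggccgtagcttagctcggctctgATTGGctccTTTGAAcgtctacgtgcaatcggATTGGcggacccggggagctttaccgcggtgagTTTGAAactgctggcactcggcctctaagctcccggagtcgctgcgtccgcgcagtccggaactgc
Top2a: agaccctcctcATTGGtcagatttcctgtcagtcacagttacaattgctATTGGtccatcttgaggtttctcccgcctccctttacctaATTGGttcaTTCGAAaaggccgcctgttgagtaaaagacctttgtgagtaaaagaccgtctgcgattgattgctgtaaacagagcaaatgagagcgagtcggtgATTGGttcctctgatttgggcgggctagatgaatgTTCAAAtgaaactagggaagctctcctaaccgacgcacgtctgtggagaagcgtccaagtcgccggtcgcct
Cdc20: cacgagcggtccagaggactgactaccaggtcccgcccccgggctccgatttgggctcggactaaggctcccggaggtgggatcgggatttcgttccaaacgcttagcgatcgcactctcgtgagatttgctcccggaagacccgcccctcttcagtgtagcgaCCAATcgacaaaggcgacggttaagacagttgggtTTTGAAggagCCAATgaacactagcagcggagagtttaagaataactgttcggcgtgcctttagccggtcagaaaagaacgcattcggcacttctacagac
Mcm5: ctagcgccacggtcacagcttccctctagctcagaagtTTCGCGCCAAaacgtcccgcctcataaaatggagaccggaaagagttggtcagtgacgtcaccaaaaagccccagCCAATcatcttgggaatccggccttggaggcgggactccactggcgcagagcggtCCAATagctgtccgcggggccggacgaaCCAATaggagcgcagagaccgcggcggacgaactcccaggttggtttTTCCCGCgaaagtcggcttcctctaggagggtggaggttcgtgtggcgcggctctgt

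Cdk1 held 3 CCAAT, 2 CHR and 2 E2F-like matches, and the mitotic genes Top2a and Cdc20 held CCAAT and CHR but no E2F-like match. Mcm5, a replication gene, held 3 CCAAT and 3 E2F-like matches and no CHR letters. A promoter was matched by symbol for 21 of the 30 measured genes. CHR letters were present in 9 of 12 mitotic promoters (75.0%) and 3 of the 9 others (33.3%), against 19.7% of all 33469 promoters of the same length, and E2F-like letters in 3 of 12 mitotic promoters and 6 of the 9 others (66.7%), against 9.52%. CCAAT stood in 15 of 21 (71.4%), against 37.5% of all promoters, and CCAAT and CHR together in 8 of 12 mitotic promoters (66.7%), against 7.95%. A match of letters is a description and does not show that a factor binds there.

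Among the regulators of G1 and of entry into S phase, 4 of 5 measured genes rose, with a median difference of 0.48. Ccnd1, the D-type cyclin that first responds to growth signals, read 10.44, 11.25 and 10.95 log2 units on SNT 1, 2 and 3, against 9.50, 9.44 and 9.50 on naive 1, 2 and 3. The SNT arrays were all above the naive arrays, which lay within 0.1 of each other, and the level was 2.64-fold higher in SNT ganglia (log2 1.40 ± 0.19 SE, limma adjusted p = 0.00339, n = 3 each). All 8 of its probesets were called higher, with differences of 1.12 to 1.55. Ccnd2, a second D-type cyclin, read 9.50, 10.23 and 10.09 on the SNT arrays, against 9.12, 9.01 and 9.34 on the naive arrays. It was 1.72-fold higher in SNT ganglia (0.79 ± 0.20, limma adjusted p = 0.0236), with SNT 1 only slightly above naive 3. Cdk2, the kinase that works with cyclins E and A, rose by 0.48 and Ccne2 by 0.45, the SNT and naive arrays of Ccne2 overlapping. Ccne1, the other cyclin E, read 6.12, 6.49 and 6.29 on the SNT arrays, against 6.51, 6.43 and 6.56 on the naive arrays. It was the only member with a negative difference, -0.20 ± 0.12, and did not pass (limma adjusted p = 0.255). Cdk2 lost its call without naive 1 (adjusted p = 0.102) or naive 2 (0.112), and Ccne2 without any array but SNT 1 (adjusted p = 0.118 to 0.232).

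In the licensing of origins and at the replication fork, 5 of 6 measured genes rose, Cdc45 among them, by a median of 0.48 over the group. The 3 measured subunits of the MCM ring, the replicative helicase, rose: Mcm5 by 0.77 ± 0.15, Mcm7 by 0.65 ± 0.23 and Mcm2 by 0.59 ± 0.16 (limma adjusted p = 0.00849, 0.0765 and 0.0338). Mcm5, with CCAAT and E2F-like letters in its promoter, read 6.33, 6.82 and 6.57 on the SNT arrays, against 5.63, 5.83 and 5.93 on the naive arrays, with a clear gap between the groups. For Mcm7, naive 3 at 7.19 was above SNT 1 at 7.04. Cdc6, which loads the helicase, and Cdc45, which activates it, rose by 0.36 and 0.37. Pcna, the sliding clamp, read 8.24, 8.71 and 8.81 on the SNT arrays, against 8.34, 8.30 and 8.68 on the naive arrays. The groups overlapped, and its difference of 0.15 ± 0.18 did not pass (limma adjusted p = 0.589), with 0 of its 7 probesets called. Mcm5 kept its call whichever array was left out. Mcm2 did not pass without naive 1 (adjusted p = 0.105), Mcm7 and Cdc6 without SNT 2, SNT 3, naive 1 or naive 2 (adjusted p = 0.169 to 0.263), and Cdc45 without SNT 2, naive 1 or naive 2 (adjusted p = 0.121 to 0.171).

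Of the enzymes that supply nucleotides for DNA synthesis, neither measured gene passed. Tyms, thymidylate synthase, read 6.65, 7.29 and 7.09 on the SNT arrays, against 7.02, 6.78 and 7.00 on the naive arrays, with the groups overlapping (0.08 ± 0.17, limma adjusted p = 0.779). Rrm1, the large subunit of ribonucleotide reductase, had a difference of 0.23 ± 0.11 (limma adjusted p = 0.174) at levels of 4.97 to 5.36, under the gene-level floor of 5.50, the lowest 25% of genes.

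The regulators of mitotic entry had a larger median difference, 0.86: 5 of 7 measured genes rose, Cdk1 among them. Cdk1, the kinase that drives cells into mitosis, read 5.55, 6.86 and 6.49 on the SNT arrays, against 5.04, 4.36 and 5.27 on the naive arrays. All naive values were under the floor of 5.50 and all SNT values above it, and the level was 2.66-fold higher in SNT ganglia (1.41 ± 0.36, limma adjusted p = 0.0248), with 7 of 10 probesets called higher. Ccna2, cyclin A, read 5.89, 7.07 and 6.63 on the SNT arrays, against 5.44, 5.20 and 5.85 on the naive arrays. Its SNT 1 value was almost level with naive 3, and it was 2.04-fold higher in SNT ganglia (1.03 ± 0.30, limma adjusted p = 0.0397). Plk1, Polo-like kinase, read 6.72, 7.38 and 7.04 on the SNT arrays, against 5.80, 5.99 and 6.43 on the naive arrays. The groups did not overlap, and it was 1.96-fold higher in SNT ganglia (0.97 ± 0.21, limma adjusted p = 0.0141). Ccnb2, a cyclin B, read 6.85, 7.81 and 7.09 on the SNT arrays, against 6.28, 6.16 and 6.71 on the naive arrays. It was 1.82-fold higher in SNT ganglia (0.86 ± 0.26, limma adjusted p = 0.0447), SNT 2 standing above the other arrays. Ccna2 lost its call without SNT 3 (adjusted p = 0.109), naive 1 (0.112) or naive 2 (0.130), and Ccnb2 without naive 1 (0.131) or naive 2 (0.142).

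Foxm1, the transcription factor for many mitotic genes, rose by 0.75 ± 0.18 (limma adjusted p = 0.0205). Ccnb1, the other cyclin B, read 6.67, 7.77 and 7.16 on the SNT arrays, against 6.64, 6.51 and 6.65 on the naive arrays. Its groups were just apart, with SNT 1 almost level with naive 3, and its difference of 0.60 ± 0.25 did not pass (limma adjusted p = 0.122); without SNT 1 it passed (adjusted p = 0.0119). Aurka, the Aurora kinase of centrosomes and spindle poles, read 6.50, 6.52 and 6.67 on the SNT arrays, against 6.37, 6.56 and 6.67 on the naive arrays. The groups lay on top of each other, with a difference of 0.03 ± 0.11 and 0 of 9 probesets called.

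The largest group, the genes for chromosomes, the spindle and exit from mitosis, also had the highest median, 0.93, and 9 of its 10 measured members rose. Top2a, the topoisomerase that untangles sister chromosomes and whose promoter held CCAAT and CHR letters, read 6.43, 7.62 and 7.07 on the SNT arrays, against 5.53, 5.48 and 6.16 on the naive arrays. The groups did not overlap, the level was 2.49-fold higher in SNT ganglia (1.32 ± 0.31, limma adjusted p = 0.0186), and 26 of its 34 probesets were called higher. Mki67, the proliferation marker Ki-67, read 6.84, 8.11 and 7.80 on the SNT arrays, against 5.91, 6.09 and 6.92 on the naive arrays. Here naive 3 was slightly above SNT 1, and the level was 2.42-fold higher in SNT ganglia (1.28 ± 0.38, limma adjusted p = 0.0405). The Mki67 call was lost without SNT 2 (log2 1.01, adjusted p = 0.113), SNT 3 (1.17, 0.117), naive 1 (1.08, 0.132) or naive 2 (1.17, 0.125). Aurkb, the Aurora kinase that corrects chromosome attachment, read 6.81, 7.84 and 7.41 on the SNT arrays, against 5.92, 6.08 and 6.52 on the naive arrays. Its groups were apart at a 2.26-fold higher level in SNT ganglia (1.18 ± 0.27, limma adjusted p = 0.0166).

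The genes of the late spindle and of mitotic exit moved in the same direction. Cdc20, the activator of the anaphase-promoting complex, read 6.86, 7.68 and 7.52 on the SNT arrays, against 6.08, 6.05 and 6.27 on the naive arrays. Every SNT array was well above the naive arrays, and the level was 2.33-fold higher in SNT ganglia (1.22 ± 0.21, limma adjusted p = 0.0058). Ube2c, the ubiquitin-conjugating enzyme of that complex, read 8.19, 8.78 and 8.79 on the SNT arrays, against 7.66, 7.79 and 7.82 on the naive arrays, and was 1.78-fold higher in SNT ganglia (0.83 ± 0.17, limma adjusted p = 0.0111). Prc1, which bundles microtubules of the central spindle, read 6.42, 7.25 and 6.99 on the SNT arrays, against 5.74, 5.73 and 6.09 on the naive arrays. Its groups were apart as well, at a 2.05-fold higher level in SNT ganglia (1.04 ± 0.22, limma adjusted p = 0.0119). Tpx2, a spindle assembly factor, rose by 0.75, Cenpf, a kinetochore protein, by 0.69, and Bub1b, the checkpoint kinase BubR1, by 0.68, the last 2 at levels under the floor in part or all of the arrays. Tpx2 lost its call without naive 1 (adjusted p = 0.109) or naive 2 (0.102). Bub1, the partner checkpoint kinase, did not pass at 0.67 ± 0.31 (limma adjusted p = 0.150): SNT 1 at 5.24 was under all naive arrays, at 5.31, 5.26 and 5.43, while SNT 2 and 3 read 6.59 and 6.18. Without SNT 1, Bub1 passed with a difference of 1.05 (adjusted p = 0.00223).

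At the level of single probesets, which mostly stand for single exons, 151 of the 431 probesets of the members were called higher, or 35.0%, and 1 lower, a probeset of Ccne1. Over all probesets, 5.16% were called higher and 10.7% lower. A positive difference was found in 392 member probesets, or 91.0%, against 47.5% of all probesets, and the member median was 0.69. Signal strength moved with the share called: of the 328 probesets above the floor of 5.11 log2 units, 40.9% were called higher with a median of 0.76, and of the 103 at or below it, 16.5% with a median of 0.43. Differences varied widely within a gene, from 0.02 to 2.62 over the probesets of Top2a and from -0.26 to 2.18 over those of Prc1. With SNT 1, 2 or 3 left out, the count of 151 became 244, 57 or 95, and with naive 1, 2 or 3 left out it became 44, 42 or 99. The Ccne1 probeset was not called lower when any of the naive arrays was left out.

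**Figure D3:**
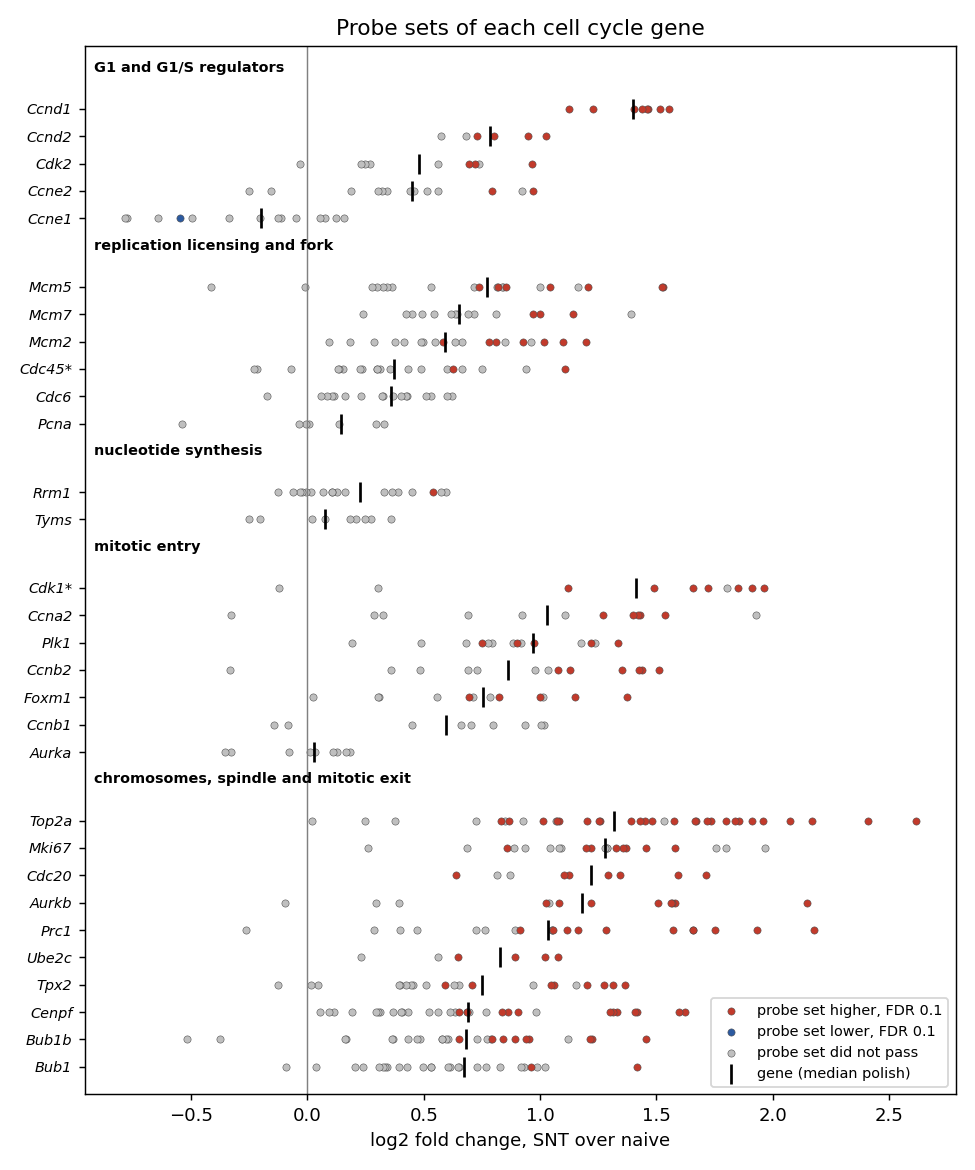
SNT minus naive log2 difference of every probeset of the measured genes, 1 point per probeset, by gene and role; red points were called higher, the blue point lower and grey points did not pass, black bars give the gene-level difference, and asterisks mark the genes under an older symbol. Points lie above 0 in 392 of the 431 probesets of the members, and the probesets of Ccnd1 lie between 1.12 and 1.55.

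The 3 SNT arrays did not carry the difference equally. The median member lay 0.36, 1.03 and 0.75 above the naive mean on SNT 1, 2 and 3, where all genes had medians of -0.08, -0.01 and -0.02. SNT 1 was the lowest SNT array in 28 of 28 members, against 48.4% of all genes. SNT 2 was the highest in 24, or 85.7%, against 33.6%. Among the naive arrays, naive 3 was the highest in 25 members, or 89.3%, against 33.1% of all genes. In the 21 members called higher, these counts were 21, 19 and 19. Of all genes called higher, the shares were 80.6%, 59.3% and 53.5%. The SD between arrays had a median of 0.34 over members in SNT ganglia and 0.15 in naive ganglia, against 0.18 and 0.09 over all genes. The order held within the role groups: the spindle and exit genes stood 0.54, 1.33 and 1.08 above the naive mean on SNT 1, 2 and 3, the mitotic entry genes 0.41, 1.30 and 0.76, the licensing genes 0.22, 0.69 and 0.57, and the G1 genes 0.26, 0.66 and 0.60.

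Markers of other cell types changed on the same arrays. For the counts below, 12.9% of all genes were called higher and 23.2% lower in SNT ganglia. Of 14 macrophage markers, 13 were measured and all 13 rose, with a median of 1.81. They followed the array order of the cell cycle genes. SNT 2 was the highest SNT array in 13 of 13, SNT 1 the lowest in 12, and naive 3 the highest naive array in 11. Of all genes called higher, 59.3%, 80.6% and 53.5% were placed in the same way. Among the SNT arrays, the medians of the T cell markers had the same order (0.61, 1.18 and 0.95 on SNT 1, 2 and 3). So did those of the myelinating Schwann cell markers (0.23, 0.70 and 0.61). The highest naive array was naive 2 for the T cell medians and naive 3 for the Schwann cell medians. Those of the neurone markers (-0.37, -0.72 and -0.39) had the reverse order, with SNT 2 lowest and SNT 1 highest. Those of the satellite glia, endothelial and fibroblast markers had other orders. The summed linear signal of the macrophage markers was 6714 to 13604 in SNT ganglia and 2116 to 2995 in naive ganglia. Of 10 T cell markers, 6 were measured and 5 rose, with a summed signal of 1127 to 1842 in SNT ganglia and 487 to 565 in naive ganglia. Cd4 had the highest level of the 6, with means of 9.54 in SNT and 8.28 in naive ganglia. It weighed most on the sum. Its differences from the naive mean were 0.76, 1.51 and 1.53 on SNT 1, 2 and 3. Whether this sum stands for T cells was not tested. Cd3d did not pass (0.28, limma adjusted p = 0.265), and 2 of the 6, Cd3d and Cd2, were under the gene-level floor. Neurone markers were present at a summed signal of 33422 to 43629 in SNT ganglia and 51907 to 54385 in naive ganglia, and 4 of the 8 measured fell. These were Snap25, Nefl, Nefm and Nefh, which the study lists among genes often dysregulated in pain models. The other neurone markers did not pass, with differences of -0.30 (Uchl1) to 0.00 (Stmn2). Satellite glia markers summed to 6224 to 7224 in SNT ganglia and 7700 to 8136 in naive ganglia (3 rose and 3 fell of 7), and myelinating Schwann cell markers to 16253 to 18417 in SNT ganglia and 15139 to 18097 in naive ganglia (4 of 7 rose). Fibroblast markers summed to 16036 to 17815 in SNT ganglia and 15808 to 17365 in naive ganglia (3 rose and 1 fell of 6). Col1a2, Col3a1 and Lum rose, and Thy1 fell. Thy1 had a high level, with means of 11.79 in SNT and 12.54 in naive ganglia, so its fall weighed on the sum. Its differences from the naive mean were -0.45, -1.01 and -0.77 on SNT 1, 2 and 3, the array order of the neurone marker medians. Whether Thy1 stands for fibroblasts here was not tested. Of the endothelial markers 0 of 5 passed, at 1017 to 1188 in SNT ganglia and 1028 to 1198 in naive ganglia. No marker has a value of 0 on this scale. The part of these cell types in the cell cycle result was not tested.

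**Figure D4:**
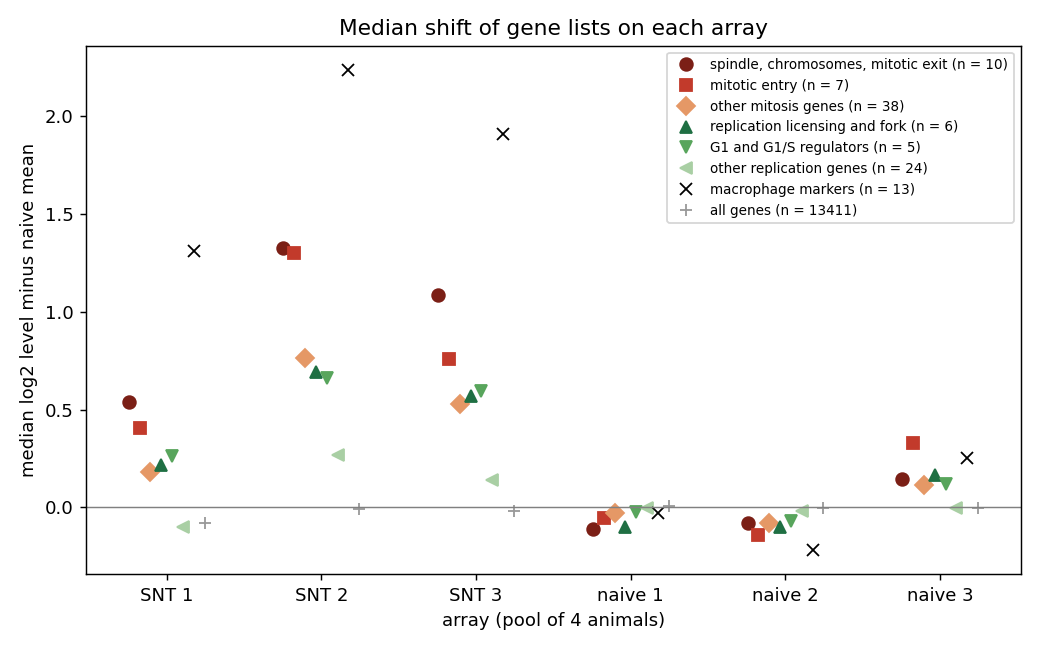
Median log2 difference from the naive mean on each of the 3 SNT and 3 naive arrays, for 4 role groups of the cell cycle genes, the further lists of mitosis and replication genes, the macrophage markers and all genes. SNT 2 is highest and SNT 1 lowest in the spindle and exit genes (1.33 and 0.54) and in the macrophage markers (2.24 and 1.31), while all genes stay near 0 on every array.

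The wider cell cycle machinery was taken from 4 further lists of 104 genes, of which 75 were measured. Of these, 35 rose (46.7%, against 12.9% of all genes), 5 fell (6.67%, against 23.2% of all genes) and 35 did not pass, with a median of 0.26. As with the members, the mitotic list stood highest: 23 of 38 genes rose, none fell, and the median was 0.56. Many of the mitotic genes that rose, among them Kif2c, Ttk and Melk, had mean levels under the gene-level floor. With only genes above that floor tested, 20 genes of the 4 lists were called higher. Anln, which builds the cleavage furrow, rose by 1.25 ± 0.33, Cks2, a small subunit of the mitotic kinase, by 1.03 ± 0.33, Cdca3 by 1.00 ± 0.14 and Ckap2, a spindle-pole protein, by 0.92 ± 0.21 (limma adjusted p = 0.0276, 0.0518, 0.0033 and 0.015). The Cks2 call, at levels under the gene-level floor on all arrays but SNT 2, was lost with naive 1 (adjusted p = 0.126) or naive 2 (0.157) left out. Of the origin and fork genes, 7 of 24 rose (29.2%) and 4 fell (16.7%), against 12.9% of all genes called higher and 23.2% called lower, and the median was 0.14. Uhrf1, which keeps DNA methylation through replication, rose by 0.89 ± 0.14, and Cdt1, a licensing factor, by 0.50 ± 0.10 (limma adjusted p = 0.0045 and 0.0101). Rpa1, which coats single-stranded DNA in replication and repair, fell by 0.67, and Orc5, an origin recognition subunit, fell by 0.65 (limma adjusted p = 0.00299 and 0.0195). Rpa1 lay at 7.96 to 8.04 on the SNT arrays, against 8.59 to 8.72 on the naive arrays, with 14 of its 18 probesets called lower.

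Of the inhibitors of cyclin-dependent kinases, which hold the cycle back, 3 of 6 measured rose, none fell and 3 did not pass. Over all genes, 12.9% were called higher and 23.2% lower. Cdkn1a, the inhibitor p21 that is switched on by p53, read 9.05, 9.31 and 9.66 on SNT 1, 2 and 3, against 7.08, 7.06 and 7.04 on naive 1, 2 and 3. Its groups were far apart, and it was 4.85-fold higher in SNT ganglia (2.28 ± 0.15, limma adjusted p = 0.000672), although it had only 2 probesets. It was highest on SNT 3 and lowest on SNT 1. Cdkn2b rose by 0.54 and Cdkn1b, the inhibitor p27, by 0.40. In the retinoblastoma and E2F family, 2 of 7 measured genes rose and 1 fell, beside 12.9% of all genes called higher and 23.2% called lower, and 4 did not pass. Rbl1 (p107) rose by 0.46 and E2f8, a repressor at levels under the gene-level floor on all arrays, by 0.42, while E2f6, another repressor, fell by 0.58. Over the 4 lists, the count of 35 genes that rose was 21 with SNT 2 left out, and 14 and 16 with naive 1 and naive 2 left out. The count of 5 that fell was 8 with SNT 3 left out, and 2, 3 and 3 with naive 1, 2 and 3 left out. Among the genes named, Cdkn1b lost its call with SNT 2, SNT 3, naive 1 or naive 2 left out (adjusted p = 0.101 to 0.164), and E2f6 and E2f8 with naive 1 left out (0.119 and 0.101).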

How the data were processed

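RNA of L5 dorsal root ganglia was measured on 6 exon arrays, 3 SNT and 3 naive. The deposited values are log2 expression values per probeset, which the authors made with RMA in the R package oligo (background correction, quantile normalisation and probe summary, per the study's methods). Values ran from 1.84 to 14.35 over 226599 probesets. The number of arrays limits the precision. The labels do not say more of the pools than their group and number, so each was taken as a separate sample.

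Probesets with exactly 1 symbol (164162; 2388 had several and 60049 none) were combined by Tukey median polish into 13411 genes, with a median of 10 probesets a gene. Older symbols were renamed through RefSeq synonyms where 1 current gene listed them and the annotation did not already use that symbol (2962 symbols). SNT was compared with naive by limma 3.58.1 (lmFit and eBayes, R 4.3.3), two-sided, with Benjamini-Hochberg adjustment over all genes or all probesets and an FDR of 0.1, as in the study's methods; ± gives the moderated SE. Signal sums are antilogs of gene values added over a marker list. The floors are the 25th percentile of mean probeset or gene values. The script was tested on simulated data. Values per array are given for the 12 called members with the largest difference and for Mki67, Top2a, Cdk1, Pcna, Ccnd1 and Ccnd2, and for others where an array decided the call; up to 4 called genes are named from each further list. The members and lists were chosen with earlier results of these data known. Alternatives changed the threshold, test, array weights, block, scaling, summary, floor and arrays used.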

Additional observations from a re-analysis of the deposited data

How the results depend on the processing

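No alternative called a member lower. Of the 21 members called higher, 8 kept their call in each alternative that tested them: Ccnd1, Mcm5, Prc1, Aurkb, Cdc20 and Ube2c in 18, and Cenpf and Bub1b in 17, since both were left out with genes above the floor only. With an ordinary t statistic in place of the moderated one, 11 members were higher, 18 other cell cycle genes were higher and 3 lower, and 40 member probesets were higher. At an FDR of 0.05, 21 other cell cycle genes and 71 member probesets were higher and 0 member probesets lower. With the most variable probeset of each gene, 14 members and 18 other genes were higher and 3 other genes lower, and Foxm1 (log2 0.03, adjusted p = 0.981) and Plk1 (1.24, 0.132) did not pass. With genes above the floor only, 20 other genes were higher, since called genes under the floor, such as Kif2c, Ttk and Melk, were not tested. The 1 member probeset called lower became 0 with trended and robust variance, cyclic loess, median centring and the replicate block. With 1 array left out in turn, 12 to 24 members and 14 to 47 other genes were higher, 2 to 8 other genes lower, 42 to 244 member probesets higher and 0 to 1 lower. The share of all genes called higher was 7.51% to 20.8% in these fits. Differences that changed sign belonged to genes that did not pass: Aurka -0.015 with the mean of probesets and -0.055 to 0.094 with 1 array left out, Tyms -0.20 with the most variable probeset and -0.063 to 0.26 with 1 array left out, and Pcna -0.034 and Rrm1 -0.024 with the most variable probeset. The cause of these changes was not tested.

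Scaling moved the split of calls over all genes: 35.8% of calls were higher as deposited, 46.1% after cyclic loess and 56.2% after median centring, which moved the median gene from -0.02 to 0.09. The members' median stood 0.74 above that of all genes as deposited and after centring, and 22 and 24 members were higher after cyclic loess and centring. The correlations of same-numbered arrays were -0.07, -0.21 and 0.06, and those of the other pairs lay between -0.23 and 0.29. With 3 arrays in each group, such correlations cannot settle whether the pools were paired. With the replicate block, 20 members and 140 member probesets were higher.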
